A study of Sus scrofa with 22 samples.

Results

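The genes described here are the enzymes and readers of histone lysine methylation and of DNA methylation, measured by RNA sequencing in cloned and fertilized pigs. They were chosen by name: every gene whose symbol begins with KDM, KMT, SETD, SUV39H, SUV420H, EHMT, PRDM, CBX, DNMT, NSD, WHSC1 or UHRF in the numbered families of those names, with TET1 to TET3, DOT1L and TRIM28. The pig annotation holds 77 such symbols. Of these, 40 could be matched to transcript records in the deposited tables, out of 14389 genes matched in all, and the other 37 are not analysed here. The unmatched symbols include KDM4A, KDM4B, KDM4C, TET1, TET3, UHRF2, TRIM28, EHMT1, SUV39H1, KDM6A, SETD2, DOT1L and NSD2. UHRF1BP1L fits the rule by its name alone: it is a lipid transfer protein and is kept as a member of the list, not as a methylation regulator.

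Methyl groups are written onto histone tails by methyltransferases, removed by demethylases and read by chromodomain proteins of the CBX family, and the lysine that carries them sets whether the mark goes with active genes (H3K4, H3K36) or with silent chromatin (H3K9, H4K20). On DNA, DNMT3 enzymes place new methyl groups, DNMT1 copies them at replication with the help of UHRF1, and TET enzymes oxidize them. In somatic cell nuclear transfer, where a donor nucleus is put into an enucleated egg, H3K9 methylation and DNA methylation carried over from the donor are known as barriers to development, and KDM4 demethylases are used to lower the histone mark.

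The 22 libraries came from pig (Sus scrofa). For fetal body tissue there were 14 libraries, 7 at day 30 and 7 at day 35, and each day had 2 abnormal clones, 3 normal clones and 2 naturally fertilized (NF) fetuses. For blastocysts, cultured to day 6, there were 8, with 2 libraries each of WT+Kdm4A, XIST-KO, WT and IVF. XIST-KO, WT+Kdm4A and WT embryos were cloned and IVF embryos fertilized. XIST is the noncoding RNA by which a female cell shuts down an X chromosome, and Kdm4A is an H3K9 demethylase; how XIST was knocked out, how Kdm4A was supplied and from which species is not stated in the labels. XIST and KDM4A themselves are not analysed here, so neither treatment is checked by its own transcript. All cloned samples were labelled male; day 30 NF replicate 2 was labelled female and the IVF embryos were pooled from males and females. The labels give neither the donor cell line nor the number of embryos pooled per library, and they do not say whether replicates came from different animals or cultures. The p-values therefore measure the spread between these samples only.

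Total expected counts, the read numbers that the RSEM program assigns to each transcript, per library ranged over 588882 to 11535824 in fetuses and 6448823 to 20352041 in embryos. Day 35 abnormal replicate 2 was the shallowest, and it stood apart from replicate 1. Of 39 members tested in fetuses, 20 differed by more than 2 times between these libraries. Between the day 30 abnormal libraries 0 did, between the day 30 NF libraries 5 and between the day 35 NF libraries 1. The share of all genes was not counted. Day 35 abnormal replicate 2 lay closer to the day 35 NF mean than to replicate 1 for 27 of the 39, and to the day 35 normal mean also for 27. For the day 30 NF, abnormal and normal means the numbers were 26, 23 and 19, so this was not particular to NF fetuses. The summed CPM (read counts brought to a common library size by edgeR) of 11 matched Y-linked genes was 279 in day 30 NF replicate 1 and 297 in day 35 abnormal replicate 2, against 536 to 1640 in the other 12 fetus libraries. Day 30 NF replicate 1 is labelled male, and day 30 NF replicate 2, labelled female, had 1410. The tissue label is broad, and marker sums differed between groups. The summed CPM of 6 matched neuron markers was 522 to 582 in abnormal, 1960 to 2500 in normal and 511 to 857 in NF fetuses at day 30, and 218 to 329 in abnormal, 2770 to 4670 in normal and 451 to 461 in NF fetuses at day 35. Of 8 matched cell cycle markers it was 993 to 1290 in abnormal, 1940 to 2200 in normal and 1200 to 1500 in NF fetuses at day 30. MKI67 had no count, so 7 markers made up this sum. TOP2A alone gave 1130 to 1310 CPM in normal fetuses at day 30. At day 35 the cell cycle sum was 247 in abnormal replicate 1 and 1650 in abnormal replicate 2, against 896 to 1070 in normal and 1140 to 1190 in NF fetuses. Trophectoderm markers (7 matched) summed to 2010 and 2580 CPM in abnormal libraries at day 30, against 219 to 282 CPM in normal and 147 to 164 CPM in NF libraries, and at day 35 to 5420 CPM in abnormal replicate 1 and 267 CPM in abnormal replicate 2, against 278 to 417 CPM in normal and 144 to 181 CPM in NF libraries. Of these 7 markers, 4 rose in abnormal against normal fetuses at day 30, and 3 rose and 1 fell at day 35. Skeletal muscle markers fell in abnormal against normal fetuses, 5 of 7 at day 30 and 7 of 7 at day 35. Their sums were 60.3 to 127 CPM against 331 to 528 CPM at day 30 and 14.6 to 138 CPM against 975 to 1940 CPM at day 35. Of 8 leukocyte markers 6 rose in abnormal fetuses at day 30 (223 to 300 CPM, against 68.0 to 85.1 CPM in normal fetuses) and 6 fell at day 35 (16.2 to 46.4 CPM, against 148 to 203 CPM). Of 6 endothelium markers 1 rose at day 30 (821 to 1200 CPM, against 501 to 542 CPM) and 5 fell at day 35 (32.4 to 165 CPM, against 638 to 720 CPM). Of 7 liver markers 4 rose at day 30, where abnormal replicate 1 had 46.7 CPM and abnormal replicate 2 had 1710 CPM, against 72.6 to 104 CPM in normal fetuses. At day 35, 1 liver marker rose and 1 fell (21.6 to 46.0 CPM, against 155 to 213 CPM). The part of these cell types in the differences described next was not tested. In bulk tissue, fewer cells of a type and less RNA per cell cannot be told apart.

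Levels were compared between genes on the TPM scale, which divides by transcript length. In fetuses the highest median TPM among members belonged to the HP1 readers CBX3 (151 TPM) and CBX1 (134 TPM), which bind methylated H3K9. They were followed by UHRF1 (95.7 TPM), which guides DNMT1 to half-methylated DNA, by DNMT1 itself (94.9 TPM), and by the H3K4 demethylases KDM1A (72.9 TPM) and KDM5C (65.8 TPM), the gene of KDM5C lying on X. SETD3, KMT2E, CBX5 and KDM2A completed the highest 10, with medians of 37.0 to 47.5 TPM. A median of at least 1 TPM was reached by 38 of 40 members in fetuses; CBX7 (0.555 TPM) and DNMT3L (0 TPM) were the exceptions. Across single fetus libraries the neighbours in this order overlapped: CBX3 ranged over 105 to 214 TPM, CBX1 over 92 to 296 TPM, UHRF1 over 3.92 to 181 TPM and DNMT1 over 18.7 to 135 TPM.

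In day 6 embryos the members were low. Their summed level was 26.2 to 140 TPM per embryo library, against 923 to 1730 TPM per fetus library, and a median of 1 TPM was reached by 16 of 40. The highest embryo medians were those of DNMT1, KDM1A, NSD1, KDM3A, KDM8, KMT2B, KDM2A, CBX5, KDM5C and SETD9. For 27 members the highest embryo library lay below the lowest fetus library on the TPM scale, and none had a higher median in embryos. The share of all genes with such an order was not counted, so the order is not shown to be particular to the members. Of all matched genes, 6171 to 7298 had a count in an embryo library, against 7983 to 10985 in a fetus library. UHRF1, among the most abundant members in fetuses, had 0 to 0.161 CPM in every embryo library, where DNMT1 had 17.1 to 84.6 CPM. KDM7A, PRDM12 and DNMT3L had no count in any embryo library. Fetus and embryo libraries were built with different kits, from total RNA in fetuses and from cDNA in embryos, so stage and library type cannot be told apart and no test was made between them.

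**Figure D1:**
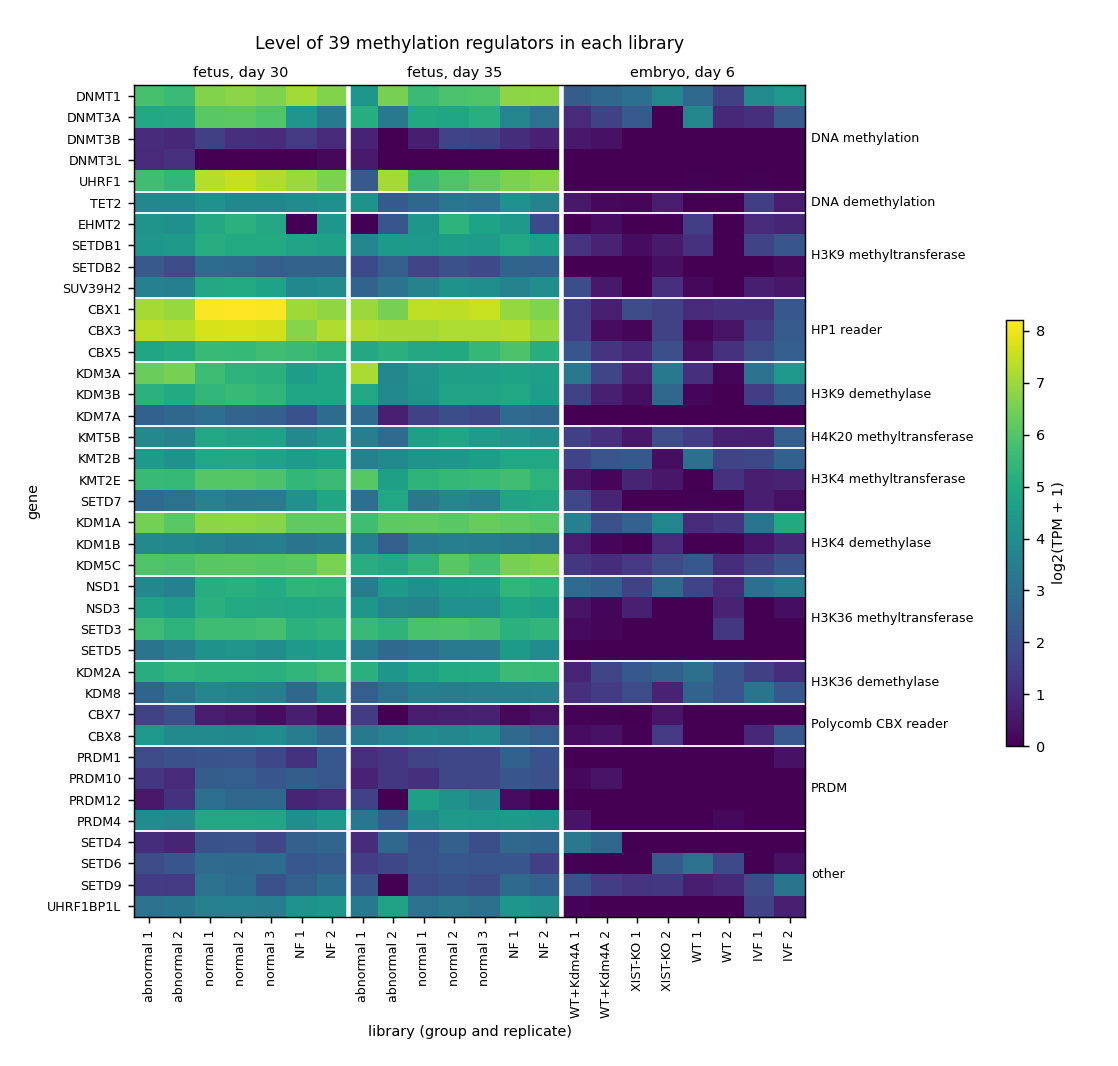
Level of 39 of the 40 matched members (rows, grouped by role) in each of the 22 libraries (columns), as log2(TPM + 1). Embryo columns are dark for most members, and the column of day 35 abnormal replicate 2 differs from that of replicate 1 for UHRF1, DNMT1, DNMT3A and KDM3A.

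Abnormal clones were first compared with normal clones, to ask whether transcripts of these regulators differ between cloned fetuses of unlike condition. Over both days the members that fell in abnormal clones were SUV39H2 and CBX1 (H3K9), KMT5B (H4K20), NSD1 (H3K36), KMT2B (H3K4) and the zinc finger genes PRDM4, PRDM10 and PRDM12, and KDM3A and CBX7 rose. Taken over both days, 10 of 39 members tested passed the test (2 higher, 8 lower), or 25.6%, beside 31.0% of all 9911 genes tested (15.2% higher, 15.8% lower). At day 30 there were 7 (1 higher, 6 lower), or 17.9%, beside 15.4% of all genes (8.93% higher, 6.46% lower). At day 35 there were also 7 (2 higher, 5 lower), or 17.9%, beside 23.2% of all genes (10.9% higher, 12.3% lower). For calls in either direction, these shares were near or below those of genes at large. By direction they differed. The members called lower, 6 of 39 at day 30 and 8 of 39 over both days, were larger shares than the 6.46% and 15.8% of all genes. At day 35 the share called lower, 5 of 39, was near the 12.3% of all genes. The shares called higher were below those of all genes in each comparison. Whether these shares differ beyond sampling was not tested. The median log2 fold change of members was -0.28 at day 30 and -0.03 at day 35, beside -0.02 and 0.00 over all genes.

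SUV39H2, a methyltransferase that trimethylates H3K9, had 37.1 and 28.2 CPM in abnormal fetuses at day 30, against 70.4, 74.4 and 57.8 CPM in normal fetuses. At day 35 it had 19.6 and 13.5 CPM in abnormal fetuses, against 35.5, 38.9 and 38.1 CPM in normal fetuses. Every abnormal library lay below every normal library of its day. The log2 fold change was -1.05 ± 0.21 at day 30 (SE, adjusted p = 0.0092), -1.07 ± 0.24 at day 35 (adjusted p = 0.00992) and -1.06 ± 0.16 over both days (adjusted p = 0.000797; edgeR's quasi-likelihood test with Benjamini-Hochberg adjustment, as for all adjusted p here unless another tool is named). The other H3K9 methyltransferases did not pass: SETDB1 changed by -0.32 ± 0.12 over both days (adjusted p = 0.073), and SETDB2 by -0.45 ± 0.25 at day 30 (adjusted p = 0.245) and 0.54 ± 0.28 at day 35 (adjusted p = 0.205).

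CBX1, the HP1 beta reader of methylated H3K9, had 301 and 284 CPM in abnormal fetuses at day 30, against 514, 555 and 534 CPM in normal fetuses. At day 35 the values were 318 and 202 CPM in abnormal fetuses, against 354, 322 and 363 CPM in normal fetuses. The groups did not overlap on either day, and the log2 fold change was -0.87 ± 0.19 at day 30 (adjusted p = 0.0126), -0.39 ± 0.19 at day 35 (adjusted p = 0.154) and -0.63 ± 0.13 over both days (adjusted p = 0.00471). CBX3 (0.09 ± 0.12) and CBX5 (-0.08 ± 0.16), the other HP1 proteins, did not pass over both days.

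KMT5B, which dimethylates H4K20 downstream of HP1, had 91.3 and 84.7 CPM in abnormal fetuses at day 30, against 159, 153 and 148 CPM in normal fetuses. The day 35 values were 80.6 and 43.2 CPM in abnormal fetuses, against 158, 163 and 133 CPM in normal fetuses. All 4 abnormal libraries lay below all 6 normal ones, and the log2 fold change was -0.80 ± 0.21 at day 30 (adjusted p = 0.0299) and -1.19 ± 0.23 at day 35 (adjusted p = 0.00474). NSD1, an H3K36 dimethyltransferase, had 171 and 154 CPM in abnormal fetuses at day 30, against 364, 403 and 357 CPM in normal fetuses. With 151 and 275 CPM in abnormal fetuses at day 35, against 210, 245 and 261 CPM in normal fetuses, the groups overlapped. Its log2 fold change was -1.2 ± 0.22 at day 30 (adjusted p = 0.00638) and -0.20 ± 0.22 at day 35 (adjusted p = 0.557).

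The PRDM genes carry a domain related to the SET domain of methyltransferases. PRDM4, a zinc finger factor, had 66.8 and 62.9 CPM in abnormal fetuses at day 30, against 103, 108 and 102 CPM in normal fetuses, and 41.8 and 18.9 CPM in abnormal fetuses at day 35, against 62.0, 78.6 and 76.9 CPM in normal fetuses. Its log2 fold change was -0.69 ± 0.22 at day 30 (adjusted p = 0.0603), -1.08 ± 0.25 at day 35 (adjusted p = 0.011) and -0.88 ± 0.17 over both days (adjusted p = 0.00285). PRDM12, a factor of sensory neuron development, had 0.437 and 1.28 CPM in abnormal fetuses at day 30, against 5.55, 4.57 and 4.61 CPM in normal fetuses. PRDM12 at day 35 had 2.30 and 0 CPM in abnormal fetuses, against 21.9, 14.4 and 11.2 CPM in normal fetuses, and 3 counts correspond to 8.09 CPM in abnormal replicate 2. Its log2 fold change was -2.47 ± 0.70 at day 30 (adjusted p = 0.0359) and -3.09 ± 0.69 at day 35 (adjusted p = 0.00975). PRDM12 moved with the neuron markers: 5 of 6 fell in abnormal fetuses at day 30 and 6 of 6 at day 35. The part of the neuron markers in the PRDM12 difference was not tested. PRDM10 fell at day 30, where it had 5.24 and 3.85 CPM in abnormal fetuses, against 12.5, 13.9 and 10.7 CPM in normal fetuses (log2 fold change -1.44 ± 0.40, adjusted p = 0.0327).

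KDM3A, a demethylase of mono- and dimethylated H3K9, had 406 and 487 CPM in abnormal fetuses at day 30, against 205, 166 and 154 CPM in normal fetuses. The day 35 libraries split, with 823 and 62.0 CPM in abnormal fetuses, against 88.3, 108 and 107 CPM in normal fetuses. The 3 deeper abnormal libraries were above every normal library and the shallow one was below. The log2 fold change was 1.35 ± 0.61 at day 30 (adjusted p = 0.155) and 2.18 ± 0.62 at day 35 (adjusted p = 0.0264); without day 35 abnormal replicate 1 the day 35 value was -0.72. CBX7, a chromodomain subunit of Polycomb repressive complex 1, had 8.74 and 13.3 CPM in abnormal fetuses at day 30, against 1.93, 1.67 and 0.738 CPM in normal fetuses, a log2 fold change of 2.91 ± 0.72 (adjusted p = 0.0218). CBX7 at day 35 had 8.06 and 0 CPM in abnormal fetuses, against 2.19, 2.37 and 2.51 CPM in normal fetuses (1.24 ± 0.77, adjusted p = 0.266). KMT2B, an H3K4 methyltransferase, was lower by a small margin at day 35, with 117 and 127 CPM in abnormal fetuses against 160, 157 and 194 CPM in normal fetuses (-0.49 ± 0.16, adjusted p = 0.0443). UHRF1BP1L was higher at day 35, with 66.0 and 159 CPM in abnormal fetuses against 44.7, 47.6 and 39.7 CPM in normal fetuses (1.26 ± 0.28, adjusted p = 0.00983).

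**Figure D2:**
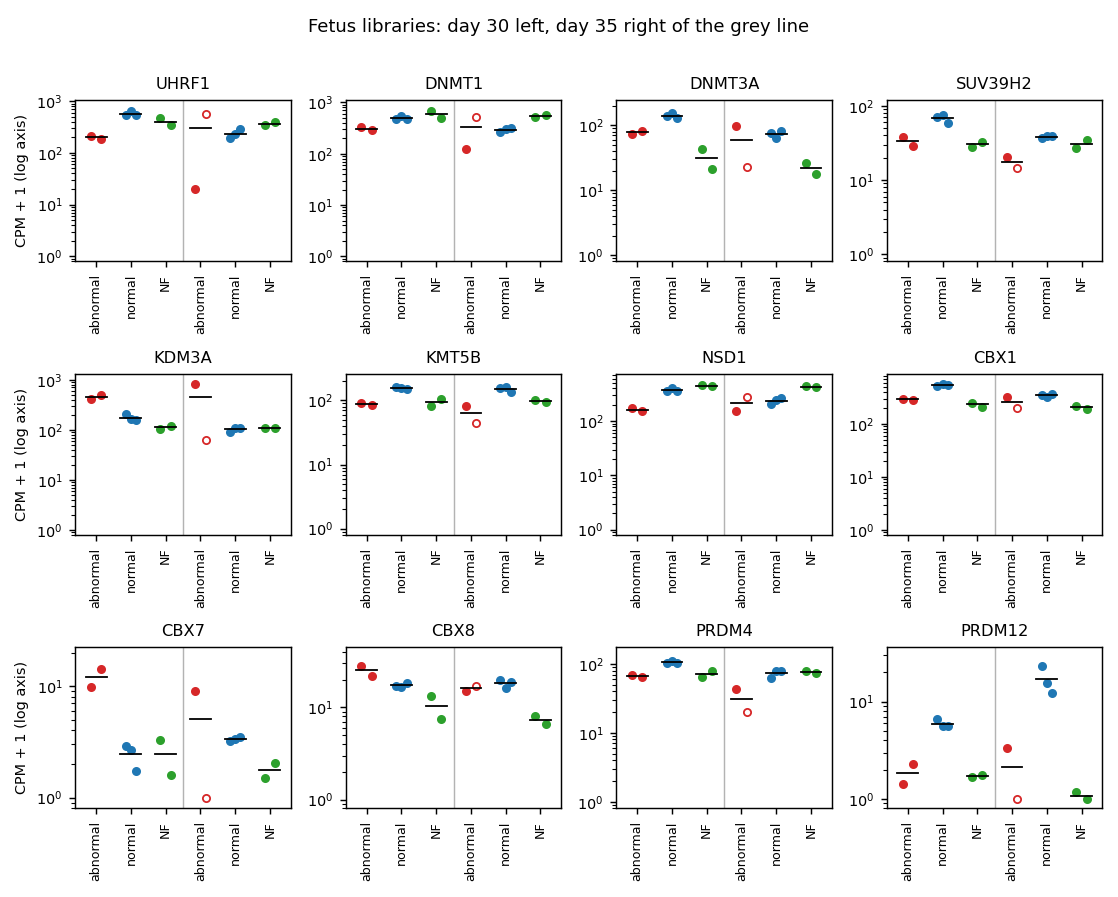
CPM + 1 (log axis) of 12 members in the fetus libraries, with abnormal, normal and NF groups from left to right at day 30 and, right of the grey line, at day 35; points are libraries, bars are group means, and the open point is day 35 abnormal replicate 2. SUV39H2, KMT5B and PRDM4 lie lower in abnormal than in normal fetuses at both days, while UHRF1 and KDM3A differ between the day 35 abnormal libraries by more than any other group.

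The DNA methylation machinery gave no call between abnormal and normal fetuses when all libraries were used, and its values at day 35 split by library. UHRF1 had 213 and 186 CPM in abnormal fetuses at day 30, against 540, 654 and 531 CPM in normal fetuses. UHRF1 at day 35 had 18.8 and 572 CPM in abnormal fetuses, against 193, 228 and 284 CPM in normal fetuses, so that the abnormal libraries lay on either side of all normal ones. DNMT1 showed the same split, with 125 and 529 CPM in abnormal fetuses at day 35, against 265, 298 and 317 CPM in normal fetuses. The log2 fold change of UHRF1 was -1.52 ± 0.85 at day 30 (adjusted p = 0.249) and 0.24 ± 0.83 at day 35 (adjusted p = 0.873), and that of DNMT1 was -0.69 ± 0.42 (adjusted p = 0.291) and 0.10 ± 0.42 (adjusted p = 0.893). Without day 35 abnormal replicate 2, UHRF1 was lower by -1.53 at day 30 (adjusted p = 0.000404) and by -3.60 at day 35 (adjusted p = 3.85e-05), and DNMT1 by -0.69 (adjusted p = 0.00599) and -1.19 (adjusted p = 0.00135). Without replicate 1 instead, the day 35 values were 1.26 (adjusted p = 0.00337) and 0.83 (adjusted p = 0.00847). Both genes moved with the cell cycle marker sums, which were 247 and 1650 CPM in the same day 35 abnormal libraries. In either comparison 0 of 7 tested cell cycle markers passed, and their part in the difference was not tested.

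DNMT3A, a de novo methyltransferase, had 73.4 and 80.8 CPM in abnormal fetuses at day 30, against 140, 153 and 130 CPM in normal fetuses (-0.87 ± 0.42, adjusted p = 0.188). At day 35, 97.8 and 21.6 CPM in abnormal fetuses stood against 74.3, 62.2 and 81.0 CPM in normal fetuses, with overlap (-0.09 ± 0.43, adjusted p = 0.913). DNMT3L, the catalytically inactive partner of DNMT3A, was too low to be tested: 7 counts in the day 30 abnormal libraries against 0 in the normal libraries, which is at least 8.14-fold higher when the group floor is set at 3 counts. DNMT3B stayed at 0 to 8.29 CPM in all fetus libraries. TET2, which oxidizes methylcytosine, had 144 and 154 CPM in abnormal fetuses at day 30, against 151, 125 and 125 CPM in normal fetuses (0.16 ± 0.41, adjusted p = 0.828). At day 35 the abnormal libraries of TET2 split, with 223 and 43.2 CPM on either side of 62.5, 81.1 and 76.7 CPM in normal fetuses (0.97 ± 0.42, adjusted p = 0.115). Over both days its log2 fold change was 0.56 ± 0.29 (adjusted p = 0.166). EHMT2, an H3K9 dimethyltransferase, was listed at 0 in day 30 NF replicate 1 and day 35 abnormal replicate 1 and stood at 9.26 CPM in day 35 NF replicate 2, against 13.5 to 137 CPM in the other 11 fetus libraries; no fold is given for it.

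How far these calls rest on single libraries differed between genes. Over both days, SUV39H2, KMT5B, PRDM12, PRDM4, NSD1 and CBX1 passed in each of the 14 fits that left out 1 fetus library. CBX7 lost its call without day 30 abnormal replicate 2 (1.92, adjusted p = 0.0503) and without day 35 abnormal replicate 1 (-1.78, adjusted p = 0.762), and KDM3A without that day 35 library (0.31, adjusted p = 0.205). PRDM10 lost its call without either of the same libraries (highest adjusted p = 0.167), and KMT2B passed in 9 of the 14 fits (highest adjusted p = 0.107). The count over both days was 20 (8 higher, 12 lower) without day 35 abnormal replicate 2, where 44.6% of all genes also passed. The day 30 comparison had 0 calls once abnormal replicate 2 was left out, 2 once abnormal replicate 1 was, 3 without any 1 normal library and 18 without either day 35 abnormal library. Over all genes these fits called 4.05%, 5.98%, 6.16% to 7.59%, and 31.5% (replicate 1) and 31.6% (replicate 2) in that order. The day 35 abnormal libraries are in neither group of that comparison. Leaving one out changes the shared spread, the scaling and the genes that pass the filter on low counts, which numbered 10247 without replicate 1 and 10275 without replicate 2. Without day 30 abnormal replicate 2 the adjusted p at day 30 was 0.0619 for NSD1, 0.103 for SUV39H2 and 0.11 to 0.211 for CBX1, CBX7, KMT5B and PRDM10, and 0.0957 for PRDM12; without replicate 1 NSD1 (0.0364) and SUV39H2 (0.0304) passed. At day 35 alone the count was 21 (11 higher, 10 lower) without abnormal replicate 2, beside 35.1% of all genes, and 12 (4 higher, 8 lower) without abnormal replicate 1, beside 28.9%. KMT5B, PRDM12, PRDM4, SUV39H2 and UHRF1BP1L at day 35 passed in each of the 14 fits but in none that held only the compared groups. KDM3A at day 35 lost its call without abnormal replicate 1 or any 1 normal library (highest adjusted p = 0.0979), and KMT2B passed in 2 of the 14 (highest adjusted p = 0.139). On the TPM scale tested with limma, the median log2 fold change of all genes was -0.27 at day 30, -0.32 at day 35 and -0.30 over both days, and the share of calls over all genes that were higher was 27.7%, 17.3% and 19.4% in that order, beside 58.0%, 47.2% and 49.2% on the count scale. Against that shift, the 8 members called lower over both days had limma values of -0.60 (KMT2B) to -2.68 (PRDM12) and passed, while KDM3A (0.99, limma's adjusted p = 0.135) and CBX7 (0.67, limma's adjusted p = 0.0559) did not. With only the compared groups in the fit, 25.4% of the day 35 calls over all genes were higher.

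The effect of the abnormal label was not shown to differ between days. The day 35 effect minus the day 30 effect passed for 0 of 39 members by edgeR's test, beside 4.05% of all genes. Among members, 4 were below an unadjusted p of 0.05, beside 22% of all genes, and DESeq2 called 2, beside 9.57% of the genes to which it gave an adjusted p. UHRF1BP1L (1.42 ± 0.40, adjusted p = 0.0707) and NSD1 (1.01 ± 0.31, adjusted p = 0.0908) came nearest. Leaving out day 35 abnormal replicate 1 gave 12 calls, beside 27.9% of all genes, and leaving out replicate 2 gave 9, beside 11.3%.

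Normal clones were then compared with NF fetuses, to ask what differs between cloned and fertilized fetuses in the absence of the abnormal label. DNMT3A, PRDM12, CBX1 and KMT5B rose in normal clones at both days, and SETD7 and UHRF1BP1L fell at both. At day 30, 9 of 39 members passed (7 higher, 2 lower), or 23.1%, beside 29.3% of all genes (14% higher, 15.3% lower). At day 35, 14 passed (6 higher, 8 lower), or 35.9%, beside 42.3% of all genes (22.1% higher, 20.1% lower). The median log2 fold change of members was 0.25 at day 30 and -0.08 at day 35, beside 0.00 and 0.06 over all genes.

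DNMT3A had 140, 153 and 130 CPM in normal clones at day 30, against 41.8 and 20.1 CPM in NF fetuses. DNMT3A at day 35 had 74.3, 62.2 and 81.0 CPM in normal clones, against 25.7 and 16.8 CPM in NF fetuses. All normal libraries lay above all NF libraries on both days, with log2 fold changes of 2.18 ± 0.44 (adjusted p = 0.00485) and 1.77 ± 0.44 (adjusted p = 0.00864). The call was lost without NF replicate 2 of the day (adjusted p = 0.0549 at day 30 and 0.0938 at day 35). Abnormal clones also lay above NF fetuses at day 30 (1.31 ± 0.46, adjusted p = 0.0519). The value rests on 1 record of 2504 bases, while the annotation lists 20 transcripts of DNMT3A. The difference is therefore that of this record and not of the gene as a whole. The same limit holds for other members with 1 matched record, among them NSD1 (14 annotated transcripts), KMT5B (12) and NSD3 (12). Among the other genes of DNA methylation, DNMT1 had 473, 541 and 483 CPM in normal clones at day 30, against 694 and 498 CPM in NF fetuses, and 265, 298 and 317 CPM in normal clones at day 35, against 532 and 560 CPM in NF fetuses (-0.89 ± 0.41, adjusted p = 0.0963). UHRF1 (0.52 ± 0.81 at day 30, -0.64 ± 0.79 at day 35), TET2 (-0.14 ± 0.41 and -0.84 ± 0.41) and DNMT3B (0.04 ± 0.60 and 0.87 ± 0.62) did not pass on either day.

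CBX1 had 514, 555 and 534 CPM in normal clones at day 30, against 253 and 211 CPM in NF fetuses (1.2 ± 0.19, adjusted p = 0.00132), and 354, 322 and 363 CPM in normal clones at day 35, against 216 and 192 CPM in NF fetuses (0.77 ± 0.19, adjusted p = 0.00725). SUV39H2 had 70.4, 74.4 and 57.8 CPM in normal clones at day 30, against 27.3 and 31.3 CPM in NF fetuses (1.21 ± 0.20, adjusted p = 0.00198). The day 35 difference, with 35.5, 38.9 and 38.1 CPM in normal clones against 26.5 and 33.4 CPM in NF fetuses, did not pass (0.32 ± 0.20, adjusted p = 0.213). KMT5B had 159, 153 and 148 CPM in normal clones at day 30, against 81.9 and 105 CPM in NF fetuses, and was higher by 0.71 ± 0.21 at day 30 (adjusted p = 0.0271) and 0.64 ± 0.21 at day 35 (adjusted p = 0.0295). SUV39H2, CBX1 and KMT5B at day 30 thus stood highest in normal clones, with the abnormal and NF libraries below them; these comparisons share the normal libraries. Abnormal and NF fetuses at day 30 gave no call for them, with log2 fold changes of 0.16 ± 0.22 for SUV39H2, 0.33 ± 0.20 for CBX1 and -0.09 ± 0.23 for KMT5B. The cell cycle marker sum took the same order at day 30, and so did TOP2A and CDK1 alone. CCNB1, CCNA2, MCM2, PCNA and AURKB overlapped between normal clones and NF fetuses. At day 35 the sum was lower in normal clones (896 to 1070 CPM) than in NF fetuses (1140 to 1190 CPM). CBX1 and KMT5B were higher in normal clones on that day. The part of these markers was not tested. CBX3 (0.67 ± 0.17, adjusted p = 0.0135) and the H3K4 demethylase KDM1A (0.52 ± 0.15, adjusted p = 0.0247) were also higher in normal clones at day 30. CBX5 (0.04 ± 0.23 at day 30, -0.32 ± 0.23 at day 35) and SETDB1 (0.25 ± 0.17 and -0.21 ± 0.16) did not pass.

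PRDM12 had 5.55, 4.57 and 4.61 CPM in normal clones at day 30, against 0.682 and 0.762 CPM in NF fetuses (2.72 ± 0.61, adjusted p = 0.00748). PRDM12 at day 35 had 21.9, 14.4 and 11.2 CPM in normal clones, against 0.171 and 0 CPM in NF fetuses (adjusted p = 0.000164). The NF libraries held 1 count of PRDM12 at day 35 and the normal libraries 252, a ratio of 189 with a 95% exact counting interval of 33.7 to 7510 that covers counting error only. The neuron markers moved alike: 5 of 6 rose in normal clones at day 30 and 6 of 6 at day 35, and their part in the PRDM12 difference was not tested. CBX8, another chromodomain subunit of Polycomb repressive complex 1, had 18.7, 15.4 and 18 CPM in normal clones at day 35, against 7.01 and 5.59 CPM in NF fetuses (1.46 ± 0.31, adjusted p = 0.00362). SETD3, an actin histidine methyltransferase also assigned to H3K36, was higher by 0.61 ± 0.16 at day 35 (adjusted p = 0.0119).

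SETD7, which monomethylates H3K4 and several non-histone proteins, had 48.0, 41.1 and 42.8 CPM in normal clones at day 30, against 75.6 and 121 CPM in NF fetuses (-1.16 ± 0.37, adjusted p = 0.0375). SETD7 at day 35 had 43.0, 58.0 and 50.0 CPM in normal clones, against 112 and 128 CPM in NF fetuses (-1.25 ± 0.37, adjusted p = 0.0191). Day 35 abnormal replicate 2, at 146 CPM, lay beside the NF libraries, and replicate 1, at 41.4 CPM, beside the normal clones. At day 35 a further group was lower in normal clones than in NF fetuses: NSD1 (-0.86 ± 0.21, adjusted p = 0.00727), NSD3 (-0.72 ± 0.21, adjusted p = 0.0198) and SETD5 (-0.98 ± 0.23, adjusted p = 0.00633), all assigned to H3K36 methylation. The H3K9 methyltransferase SETDB2 (-0.84 ± 0.24, adjusted p = 0.0156), KMT2B (-0.41 ± 0.15, adjusted p = 0.0409) and KDM5C (-0.76 ± 0.19, adjusted p = 0.00983) were lower as well. KDM5C, an X-linked demethylase, had 252, 380 and 298 CPM in normal clones at day 35, against 488 and 559 CPM in NF fetuses, both labelled male. At day 30 it had 351, 374 and 356 CPM in normal clones, against 385 CPM in NF replicate 1, labelled male, and 511 CPM in NF replicate 2, labelled female. The Y-linked sums of these NF libraries, 279 CPM in replicate 1 and 1410 CPM in replicate 2, depart from their sex labels.

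With 2 NF libraries per day, the counts moved with single libraries. At day 30 the count was 6 without NF replicate 1, 4 without NF replicate 2, 5 without any 1 normal library and 16 without either day 35 abnormal library, beside 22.9%, 12.5%, 18.9% to 19.2% and 43.2% to 43.3% of all genes. At day 35 it was 7 without NF replicate 1, 6 without NF replicate 2 and 9 without normal replicate 1, beside 27.3%, 21.0% and 32.9% of all genes. CBX1 and SUV39H2 at day 30 and PRDM12, CBX8, NSD1 and UHRF1BP1L at day 35 passed in all 14 such fits. At day 35 CBX1 (adjusted p = 0.0782) and KDM5C (0.0859) lost their calls without NF replicate 2, and SETD3 (0.109) and SETD5 (0.0758) without NF replicate 1. NSD3 (highest adjusted p = 0.0957), SETD7 (0.106), SETDB2 (0.0799), KMT5B (0.172) and KMT2B (0.209) lost theirs without either NF library and without further ones. At day 30 PRDM12 (0.0516) was lost without NF replicate 2 and CBX3 (0.112) without NF replicate 1, while KMT5B and KDM1A passed in 9 of the 14, UHRF1BP1L in 4 and SETD7 in 3. A further test, chosen with the values in view, asked whether the effect of cloning differed between days; edgeR called 0 members and 0.0202% of all genes, 6 members had an unadjusted p below 0.05, beside 14.3% of all genes, and PRDM12 came nearest (adjusted p = 0.143).

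**Figure D3:**
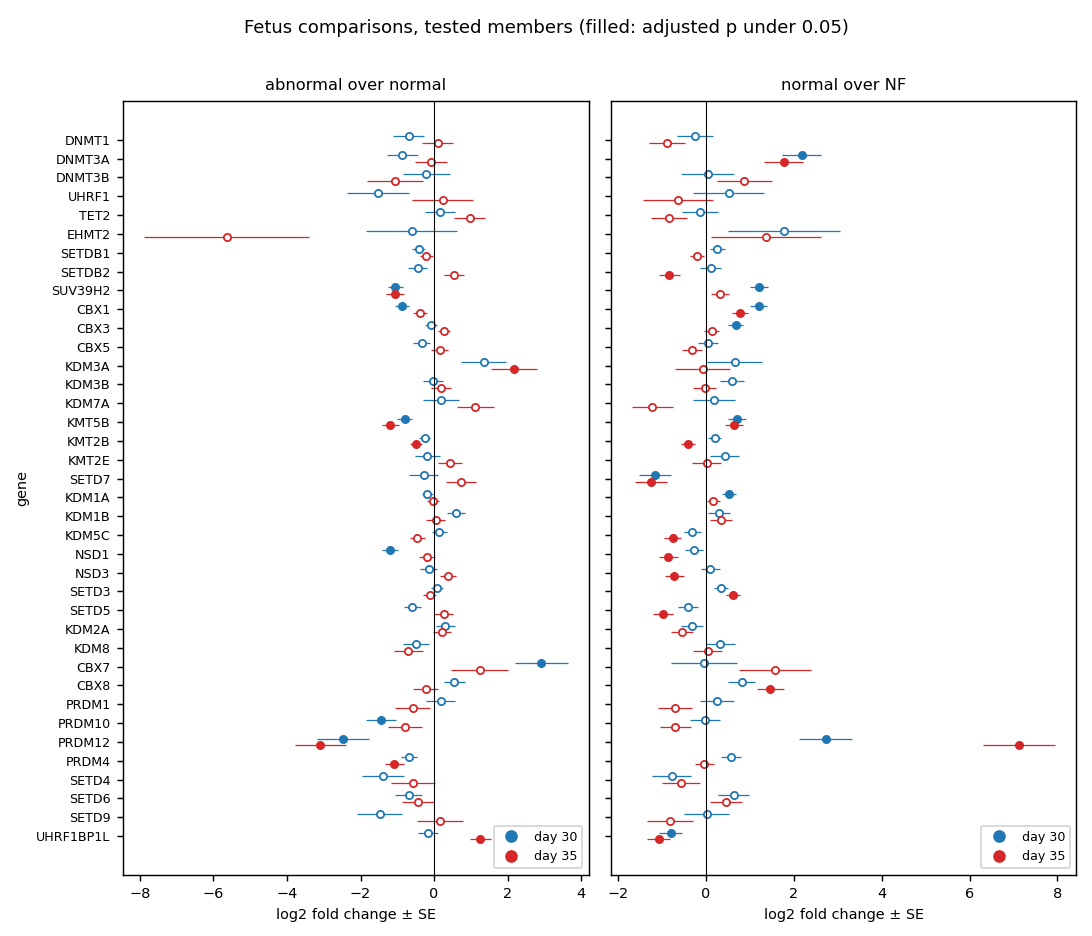
Log2 fold change ± SE (horizontal axis) of 38 of the 39 members tested in fetuses (vertical axis, by role), abnormal over normal on the left and normal over NF on the right, at day 30 (blue) and day 35 (red); filled points have adjusted p under 0.05. SUV39H2, KMT5B and PRDM12 lie left of 0 at both days in the abnormal panel, and DNMT3A and PRDM12 lie right of 0 at both days in the normal over NF panel, where the PRDM12 value at day 35 rests on 1 NF count.

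Abnormal clones against NF fetuses gave 10 calls among 39 members at day 30 (4 higher, 6 lower), or 25.6%, beside 30.0% of all genes (15.5% higher, 14.5% lower). At day 35 there were 9 (4 higher, 5 lower), or 23.1%, beside 23.2% of all genes (13.0% higher, 10.2% lower). These comparisons share their libraries with those above. On the TPM scale the median of all genes was -0.23 at day 30 and -0.37 at day 35, and 33.1% and 15.7% of all calls were higher, beside 51.7% and 56.1% on the count scale. NSD1 had 171 and 154 CPM in abnormal clones at day 30, against 467 and 438 CPM in NF fetuses (-1.48 ± 0.24, adjusted p = 0.00249), and 151 and 275 CPM in abnormal clones at day 35, against 449 and 418 CPM in NF fetuses (-1.06 ± 0.24, adjusted p = 0.0131). NSD1 thus lay below NF fetuses in all 4 abnormal libraries. CBX8 was higher in abnormal clones at both days, with 27.5 and 21.0 CPM at day 30, against 12.3 and 6.56 CPM in NF fetuses (1.36 ± 0.33, adjusted p = 0.0125), and 14.2 and 16.2 CPM at day 35, against 7.01 and 5.59 CPM in NF fetuses (1.23 ± 0.36, adjusted p = 0.0326). KDM1B, an H3K4 demethylase needed in mouse oocytes for maternal imprints, was higher at day 30, with 65.5 and 65.9 CPM in abnormal clones against 33.7 and 36.3 CPM in NF fetuses (0.91 ± 0.27, adjusted p = 0.0299). KDM5C (-1.22 ± 0.22, adjusted p = 0.00648) and KMT2B (-0.90 ± 0.17, adjusted p = 0.00697) were lower at day 35. So were PRDM4 (-1.12 ± 0.26, adjusted p = 0.0148) and PRDM10 (-1.49 ± 0.49, adjusted p = 0.0489), which passed in 2 of the 14 fits that left out a library. The day 35 calls of DNMT3A (1.68 ± 0.49, adjusted p = 0.0303), CBX7 (adjusted p = 0.0464) and PRDM12 (6 counts in abnormal and 1 in NF fetuses, adjusted p = 0.0198) were of groups that overlapped, and all were lost without abnormal replicate 1 (adjusted p of 1.0, 0.679 and 0.904 in that order). CBX7 (2.87 ± 0.82, adjusted p = 0.0237) and CBX3 (0.58 ± 0.18, adjusted p = 0.0357) were higher at day 30, and SETD4, SETD5, SETD7, PRDM10 and UHRF1BP1L were lower, by -2.17 to -0.97 on the log2 scale. The day 30 count was 1 when abnormal replicate 1 was left out, 3 when abnormal replicate 2 was, 4 without NF replicate 2 and 20 without either day 35 abnormal library, beside 12.6%, 10.9%, 12.1% and 45.1% to 45.3% of all genes. NSD1 passed at day 30 in all 14 fits that left out a library. At day 35 NSD1 lost its call without NF replicate 1 or 2 (highest adjusted p = 0.0623), as did KDM5C (0.0503) and KMT2B (0.0528) without NF replicate 2. CBX8 passed in 12 of the 14 at day 30 and 8 at day 35, and KDM1B in 10. The day 35 counts were 24 without abnormal replicate 2, 12 without abnormal replicate 1, 3 without NF replicate 1 and 0 without NF replicate 2, beside 45.9%, 9.68%, 9.15% and 3.48% of all genes.

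Between days, normal clones gave 6 calls among 39 members at day 35 over day 30 (1 higher, 5 lower), or 15.4%, beside 9.19% of all genes (5.35% higher, 3.84% lower), with a member median of -0.46 beside 0.07 over all genes. SUV39H2 (-0.85 ± 0.18, adjusted p = 0.0174), CBX1 (-0.62 ± 0.16, adjusted p = 0.0379), SETDB2 (-0.98 ± 0.22, adjusted p = 0.0217), NSD3 (-0.98 ± 0.20, adjusted p = 0.0147) and SETD5 (-0.89 ± 0.21, adjusted p = 0.0266) fell, and PRDM12 rose (1.69 ± 0.45, adjusted p = 0.0415). NSD3 had 91.6, 123 and 123 CPM in normal clones at day 35, against 238, 220 and 208 CPM at day 30. SETDB2 had 11.8, 14.6 and 11.9 CPM at day 35, against 26.8, 27.7 and 21.0 CPM at day 30. In both genes every day 35 library lay below every day 30 library. The summed cell cycle markers were also lower at day 35, at 896 to 1070 CPM against 1940 to 2200 CPM at day 30, with 0 of 7 tested markers passing; their part was not tested. The count was 0 without day 30 normal replicate 1, without day 30 normal replicate 2 or without day 35 normal replicate 1, 2 without either other day 35 normal library, 3 without day 30 normal replicate 3 and 22 without either day 35 abnormal library. Of all genes at most 0.826% passed in the fits with 0 calls, and 24.6% to 24.7% in those without a day 35 abnormal library. Over those 14 fits NSD3 passed in 11, SETDB2 and SUV39H2 in 10, SETD5 in 8, CBX1 in 6 and PRDM12 in 5. In NF fetuses 0 members and 0.0% of genes passed by edgeR's test between days, and DESeq2 and limma also called 0 members; 1 member, PRDM12, was below an unadjusted p of 0.05, as were 3.54% of all genes.

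Genes that work with the members were taken from a list of 42 cofactors, of which 34 were matched and 31 tested in fetuses. Between abnormal and normal fetuses 1 rose and 1 fell at day 30, 2 rose and 3 fell at day 35, and 3 rose and 6 fell over both days, or 2, 5 and 9 of 31. Of all genes 15.4%, 23.2% and 31.0% passed in these comparisons, so the cofactor counts were near or below the share of genes at large. MAT2A, which makes the methyl donor S-adenosylmethionine, was higher in abnormal clones, at 189 ± 34.0 CPM against 82.5 ± 10.6 CPM in normal clones at day 30 (SD, n = 2 and 3; log2 fold change 1.2 ± 0.22, adjusted p = 0.00641), and 145 ± 58.1 CPM against 69.4 ± 7.33 CPM at day 35 (1.01 ± 0.23, adjusted p = 0.0112). In NF fetuses it averaged 200 ± 1.13 CPM at day 30 and 213 ± 9.93 CPM at day 35, so that normal clones were the low group. Of 7 tested subunits and partners of the COMPASS complexes, which methylate H3K4, 3 fell in abnormal clones over both days, where 15.8% of all genes fell: ASH2L (-0.50 ± 0.11, adjusted p = 0.00773), RBBP5 (-0.58 ± 0.14, adjusted p = 0.0106) and CXXC1 (-0.46 ± 0.10, adjusted p = 0.00444). Between normal clones and NF fetuses 6 rose and 3 fell at day 30, and 5 rose and 5 fell at day 35, beside 29.3% and 42.3% of all genes called. Among them HDAC1, the deacetylase partner of KDM1A, rose (1.12 ± 0.17, adjusted p = 0.00101 at day 30; 0.67 ± 0.16, adjusted p = 0.00768 at day 35), and MBD2, a reader of methylated CpG, fell (-2.11 ± 0.42, adjusted p = 0.00422 at day 30; -2.13 ± 0.42, adjusted p = 0.00241 at day 35).

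In day 6 embryos 29 members were tested and 0 passed in any of the 5 comparisons by edgeR's test, at a biological coefficient of variation of 0.893, against 0.29 in fetuses. Among all 6958 genes 5.71% passed in WT against IVF, 1.11% in XIST-KO against WT, 7.43% in WT+Kdm4A against WT and 0.0431% in each of XIST-KO and WT+Kdm4A against IVF. Below an unadjusted p of 0.05 were 9 members in WT against IVF, 3 in XIST-KO against WT, 8 in WT+Kdm4A against WT, 3 in XIST-KO against IVF and 2 in WT+Kdm4A against IVF; the shares of all genes at that p were 27.7%, 19.0%, 29.1%, 16.4% and 12.3% in the same order. DESeq2 called 8, 3, 7, 1 and 1 members, beside 25.6%, 16.1%, 26.8%, 8.22% and 4.64% of the genes to which it gave an adjusted p. The median log2 fold change of members was -1.42 in WT against IVF, beside -0.23 over all genes, and 1.65 in WT+Kdm4A against WT, beside 0.35 over all genes; these comparisons share the WT libraries. In XIST-KO against WT it was 0.00, beside 0.15 over all genes. Of the calls over all genes, 75.1% were higher in WT against IVF, 37.7% in XIST-KO against WT and 39.7% in WT+Kdm4A against WT; on the TPM scale with limma these shares were 48.1%, 17.4% and 28.9%, with all-gene medians of -0.51, 0.12 and 0.14. The values that follow describe 2 libraries per group.

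The WT libraries had the fewest genes with a count, 6171 and 6177, against 6272 to 7298 in the other embryo libraries. Of 29 members tested, 14 lay below both IVF libraries in both WT libraries, and 2 lay above. In WT+Kdm4A 14 lay above both WT libraries and 3 below. The share of all genes with such an order was not counted. Low values in WT were thus not particular to the genes described next. The H3 demethylases KDM1A, KDM3A and KDM3B were lowest in WT embryos. KDM1A had 40 and 14.3 CPM in WT+Kdm4A, 22.5 and 29.5 CPM in XIST-KO, 3.38 and 5.57 CPM in WT and 22 and 63.1 CPM in IVF embryos. Every library of the other groups lay above both WT libraries. KDM3B had 17.5 and 6.94 CPM in WT+Kdm4A, 2.81 and 29.7 CPM in XIST-KO, 0.805 and 0 CPM in WT and 11.6 and 20.2 CPM in IVF embryos, and here too the WT libraries were the lowest. KDM3A had 56.0 and 19.0 CPM in WT+Kdm4A, 5.94 and 36.9 CPM in XIST-KO, 7.25 and 0.697 CPM in WT and 36.9 and 73.0 CPM in IVF embryos, with overlap between XIST-KO and WT. The log2 fold changes of WT over IVF were -3.25 ± 1.05 for KDM1A (adjusted p = 0.0905, DESeq2 0.00314), -5.25 ± 1.87 for KDM3B (adjusted p = 0.113, DESeq2 0.0034) and -3.78 ± 1.32 for KDM3A (adjusted p = 0.11, DESeq2 0.00904). Those of WT+Kdm4A over WT were 2.60 ± 1.02 (adjusted p = 0.13, DESeq2 0.0314), 4.86 ± 1.84 (adjusted p = 0.119, DESeq2 0.00896) and 3.23 ± 1.29 (adjusted p = 0.135, DESeq2 0.0373) in the same order. In XIST-KO over WT, KDM1A had 2.54 ± 1.02 (adjusted p = 0.213, DESeq2 0.0477). KDM3B had a DESeq2 value of 5.27 there (DESeq2's adjusted p = 0.00618) and did not pass by edgeR's test.

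NSD1 was also lowest in WT embryos. It had 114 and 106 CPM in WT+Kdm4A, 45.8 and 66.7 CPM in XIST-KO, 35.9 and 19.2 CPM in WT and 93.2 and 97.4 CPM in IVF embryos. No groups overlapped, and WT+Kdm4A and IVF lay close together. The log2 fold change was -1.79 ± 0.67 in WT over IVF (adjusted p = 0.128, DESeq2 0.0249) and 1.99 ± 0.67 in WT+Kdm4A over WT (adjusted p = 0.0905, DESeq2 0.0192). TET2 had 7.16 and 2.31 CPM in WT+Kdm4A, 1.32 and 5.13 CPM in XIST-KO, 0.322 and 0.348 CPM in WT and 20 and 4.29 CPM in IVF embryos (WT over IVF -5.13 ± 1.95, adjusted p = 0.13, DESeq2 0.00616). The cell cycle marker sums were lowest in WT embryos too, at 587 to 800 CPM in WT+Kdm4A, 412 to 502 CPM in XIST-KO, 201 to 321 CPM in WT and 931 to 999 CPM in IVF embryos. Single markers differed in order: PCNA and CDK1 were lowest in WT, while CCNB1, MCM2 and TOP2A in WT overlapped with another group. AURKB was lowest in IVF embryos (7.34 and 7.12 CPM, against 11.6 and 23.7 CPM in WT). CCNA2 was higher in WT (29.8 and 43.4 CPM) than in WT+Kdm4A (6.26 and 4.39 CPM) and XIST-KO (6.44 and 9.19 CPM). Of the cell cycle markers 1 of 7 tested fell in WT against IVF, and their part was not tested.

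Some members were seen almost entirely in single groups. SETD4, a SET domain protein, had 20.6 and 17.9 CPM in WT+Kdm4A embryos and no count in the 6 other embryo libraries. It was at least 77.5-fold higher in WT+Kdm4A than in WT and at least 95.3-fold higher than in IVF embryos, with the group floor set at 3 counts (adjusted p = 0.0605 and 0.253; DESeq2 0.00156 and 0.00585). SETD7 had 16.6 and 6.79 CPM in WT+Kdm4A, 0 and 0.0625 CPM in XIST-KO, 0.161 and 0 CPM in WT and 3.21 and 1.10 CPM in IVF embryos. The ratio of WT+Kdm4A to WT was 148 with an exact counting interval of 26.4 to 5860, from 361 counts against 1 (adjusted p = 0.0952). DNMT3B had 2.89 and 2.39 CPM in WT+Kdm4A and no count elsewhere, at least 10.7-fold higher than in WT (adjusted p = 0.145). SETD6, which methylates the NF-kB subunit RelA, was highest in WT, with 0.0602 and 0 CPM in WT+Kdm4A, 0.0825 and 5.75 CPM in XIST-KO, 15.8 and 6.27 CPM in WT and 0 and 0.368 CPM in IVF embryos (adjusted p = 0.103 in WT+Kdm4A over WT and 0.17 in WT over IVF; DESeq2 0.00421 and 0.0355). KDM2A, an H3K36 demethylase, overlapped between WT and XIST-KO and was lower in the other groups, with 7.04 and 25.5 CPM in WT+Kdm4A, 41.9 and 26.3 CPM in XIST-KO, 60.2 and 35.5 CPM in WT and 12.7 and 5.52 CPM in IVF embryos (WT over IVF 2.39 ± 1.01, adjusted p = 0.155, DESeq2 0.0363). The maintenance methyltransferase DNMT1 had 34.0 and 56.0 CPM in WT+Kdm4A, 67.8 and 60.4 CPM in XIST-KO, 44.6 and 17.1 CPM in WT and 84.6 and 84.0 CPM in IVF embryos and passed in no comparison by either tool. DNMT3A had 3.31 and 8.54 CPM in WT+Kdm4A, 16.2 and 0 CPM in XIST-KO, 40.1 and 3.48 CPM in WT and 3.06 and 7.24 CPM in IVF embryos, all groups overlapping. EHMT2 was listed at 0 in both XIST-KO libraries and in WT replicate 2, against 0.12 to 9.82 CPM in the other 5 embryo libraries. DESeq2 called it lower in XIST-KO against WT (DESeq2's adjusted p = 0.0248), a call that rests on WT replicate 1. SUV39H2, SETDB1, CBX1, CBX3, CBX5 and KDM5C did not pass in any embryo comparison, and CBX5 spanned 4.19 to 47.5 CPM and KDM5C 10.6 to 31.1 CPM over the embryo libraries.

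**Figure D4:**
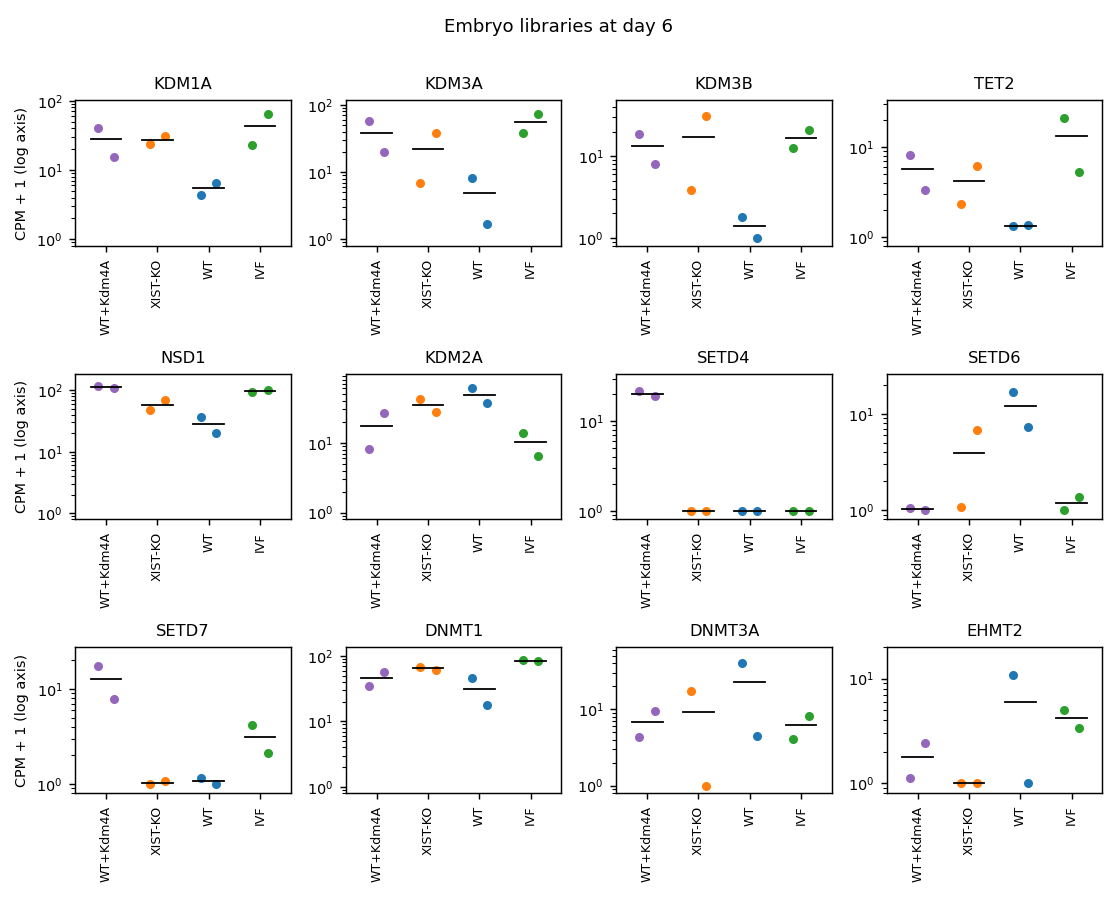
CPM + 1 (log axis) of 12 members in the 8 embryo libraries, with WT+Kdm4A, XIST-KO, WT and IVF groups from left to right; points are libraries and bars are group means. KDM1A and NSD1 are lowest in the WT libraries, and SETD4 has counts in the WT+Kdm4A libraries only, at 20.6 and 17.9 CPM.

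Of 26 cofactors tested in embryos, 3 rose and 0 fell in WT against IVF, 0 rose and 1 fell in XIST-KO against WT, and 3 rose and 4 fell in WT+Kdm4A against WT, beside 5.71%, 1.11% and 7.43% of all genes called. The enzymes of the methyl donor cycle AHCY (2090 ± 325 CPM in WT+Kdm4A, 206 ± 126 CPM in WT; SD, n = 2 each; adjusted p = 0.0129) and MAT2A (615 ± 259 CPM in WT+Kdm4A, 22.9 ± 1.81 CPM in WT; adjusted p = 0.014) rose. IDH1, which makes the demethylase cosubstrate 2-oxoglutarate in the cytosol, rose as well (567 ± 361 CPM in WT+Kdm4A, 39.8 ± 29.2 CPM in WT, adjusted p = 0.0335). These rises were called against WT only. AHCY, MAT2A and IDH1 gave no call in WT+Kdm4A against IVF, in WT against IVF or in XIST-KO against WT. The mitochondrial IDH2 was high in WT alone, with 6.78 ± 3.96 CPM in WT+Kdm4A, 69.6 ± 38.3 CPM in XIST-KO, 1090 ± 715 CPM in WT and 17.0 ± 1.49 CPM in IVF embryos. It rose in WT against IVF (adjusted p = 0.00784) and fell in XIST-KO (adjusted p = 0.0388) and WT+Kdm4A (adjusted p = 0.00424) against WT. OGDH, which consumes 2-oxoglutarate, had 2.14 ± 1.15 CPM in WT+Kdm4A, 516 ± 59.7 CPM in WT and 5.01 ± 3.96 CPM in IVF embryos, and WDR5, a core subunit of the H3K4 methyltransferase complex, 0.16 ± 0.226, 62.4 ± 13.3 and 0.229 ± 0.325 CPM in that order. Both rose in WT against IVF (adjusted p = 0.0145 and 0.0402) and fell in WT+Kdm4A against WT (adjusted p = 0.0103 and 0.0287). Neither OGDH nor WDR5 passed in XIST-KO against WT.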

How the data were processed

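Values came from 22 deposited tables, 1 per library. Per the submitters' processing notes, the authors used RSEM 1.2.4 and the pig build Sscrofa11.1 (susScr11). Neither an aligner nor a read filter is given in the sources used here. Each table lists 65927 transcript records with an expected count and a TPM value, both deposited by the authors and named in the file headers. Records were matched to symbols by RefSeq accession without its version: 25305 records (38.4%) matched 14389 genes, which hold 66% to 69% of a fetus library's counts and 79.5% to 85% of an embryo library's. All annotated transcripts were matched for 14 of the 40 members (82 records), so values of the others cover some of their transcripts. Deposited expected counts were summed per symbol and rounded; TPM values were summed per symbol.

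Fetus (14 libraries, 6 groups) and embryo libraries (8 libraries, 4 groups) were fitted separately, 1 coefficient for each group, with edgeR 4.0.16 (R 4.3.3): filterByExpr, TMM scaling, quasi-likelihood F-tests and Benjamini-Hochberg adjustment over all genes tested (9911 and 6958) at 0.05. CPM uses TMM-scaled library sizes of the matched counts. SE is the log2 fold change divided by the root of F. The floor for undetected groups is 3 counts over the group. Alternatives were RLE size factors, no filter, a filter at 1 CPM in 2 libraries, DESeq2 1.42.0, limma 3.58.1 on log2(TPM + 1), a block for the replicate number, a fit of the compared groups alone, and each library left out in turn. Added after the data were seen were the removal of day 30 NF replicate 1 together with day 35 abnormal replicate 2, blocks with crossed numbers, and the difference of the clone effect between days. The scripts were tested on simulated data. Genes named were a set of core members and those past the threshold, taken by size of change. Members, cofactor and marker lists were chosen with earlier results of these data known. Members without a matched record are not analysed here. Results of 1 matched member are included in the counts and not reported here by name. Tables and figures were made in Python 3.11.15 with pandas 2.3.3, numpy 2.4.6 and matplotlib 3.10.9.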

Additional observations from a re-analysis of the deposited data

How the results depend on the processing

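With only the compared groups in the fit, calls numbered 19 in abnormal against normal at day 30 and 0 at day 35, 17 in normal against NF at day 30, 0 in abnormal against NF at day 35, 24 in normal clones between days, 1 in WT against IVF and 4 in WT+Kdm4A against WT. With limma on log2(TPM + 1) they numbered 11 in abnormal against normal at day 30, 17 over both days, 1 in WT+Kdm4A against WT and 1 in WT+Kdm4A against IVF. DESeq2 called 2 in the day 35 minus day 30 effect, 13 in normal clones between days, 8 in WT against IVF, 3 in XIST-KO against WT, 7 in WT+Kdm4A against WT, 1 in XIST-KO against IVF and 1 in WT+Kdm4A against IVF; with no filter on low counts there were 2, 1 and 2 in the first 3 of these embryo comparisons. Without day 30 NF replicate 1 and day 35 abnormal replicate 2 together the counts were 18, 23 and 22 in abnormal against normal at day 30, at day 35 and over both days, 12 for the difference between days, 14 and 23 in normal against NF, 18 and 27 in abnormal against NF, and 23 in normal clones between days. RLE size factors and a filter at 1 CPM kept each count within 1.5 times. The shares of all genes moved as well. With only the compared groups they were 42.2% in abnormal against normal at day 30 and 3.67% at day 35, 45.5% in normal against NF at day 30, 0.0% in abnormal against NF at day 35, 40.1% in normal clones between days, 15.7% in WT against IVF and 24.8% in WT+Kdm4A against WT. With both libraries left out they were 36.3%, 39.5% and 48.6% in abnormal against normal at day 30, at day 35 and over both days, 16.8% for the difference between days, 43.7% and 58.2% in normal against NF, 44.7% and 50.0% in abnormal against NF, and 31.1% in normal clones between days. The cause of these moves was not tested.

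Leaving out each library in turn gave 0 to 18 calls in abnormal against normal at day 30, 5 to 21 at day 35, 7 to 20 over both days and 0 to 12 for the difference between days. It gave 4 to 16 and 6 to 20 in normal against NF at day 30 and day 35, 1 to 20 and 0 to 24 in abnormal against NF, 0 to 22 in normal clones and 0 to 0 in NF fetuses between days. In embryos it gave 0 to 3 in WT against IVF, 0 to 3 in XIST-KO against WT, 0 to 4 in WT+Kdm4A against WT, and 0 to 0 in XIST-KO and in WT+Kdm4A against IVF. A fit that leaves 1 library in a group assumes that it varies like the others.

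Replicate numbers are shared between groups in the labels, which do not say that they pair samples. Deviations of same-numbered libraries correlated at 0.167 in abnormal against NF at day 35 and 0.116 in XIST-KO against IVF, each with 2 pairs, and at no more than 0.0736 in the other comparisons, so pairing was not assumed. With the replicate number as a block, calls numbered 3 in abnormal against normal at day 30, 6 over both days, 5 in abnormal against NF at day 35 and 2 in normal clones between days, beside 7.4%, 19.9%, 15.2% and 4.13% of all genes. Deviations correlated at -0.303 in XIST-KO against WT and -0.314 in WT+Kdm4A against IVF, and blocks with crossed numbers gave 0 calls in each.

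Some members changed sign with 1 library left out. Without day 35 abnormal replicate 1, abnormal over normal at day 35 was -0.72 for KDM3A and -0.68 for KMT2E, and over the other fits that left out a library these reached 3.06 and 1.05. Over both days CBX7 ranged over -1.78 to 2.36 and KMT2E over -0.43 to 0.43 in such fits, and in the difference between days KDM3A ranged over -2.07 to 1.71 and UHRF1 over -2.07 to 2.79. Abnormal over normal at day 35 ranged over -1.19 to 0.83 for DNMT1 and -3.60 to 1.26 for UHRF1, where the low values, and -2.07 for UHRF1, were the same with day 30 NF replicate 1 left out as well. In abnormal over NF at day 35 the ranges were -4.95 to 3.36 for CBX7, -0.04 to 2.20 for DNMT3A, -0.70 to 1.03 for KMT2E, -2.11 to 6.07 for PRDM12, -1.67 to 0.75 for TET2 and -0.51 to 0.71 for UHRF1BP1L, the last being -0.50 with both libraries left out. The shallowest library, at 588882 counts, limits what can be said of genes near its floor of 8.09 CPM.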
